A study of Mus musculus with 2 samples.

Results

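Genes of the insulin, PI3K and mTOR pathway were examined for peaks of Sap130, which belongs to the Sin3 histone deacetylase complex, in embryonic mouse heart. The set is a list of 48 genes chosen by name, for a ligand, receptors, kinases and their regulators, out of 20949 protein-coding genes (autosomes and X only). Members were found as rows of the authors' peak table whose gene annotation equals a member's symbol, and 69 of the 15171 rows that name a gene did. The study consists of 1 chromatin immunoprecipitation library made with a rabbit Sap130 antibody from B6 wild-type heart at E13.5 (embryonic day), and 1 input library of unselected chromatin from B6 wild-type heart, whose age is labelled E13.6. Both come from whole heart, so the cell type in which a site is occupied is not resolved. How many hearts were used is not stated in the labels. The table holds a single set of peaks, of the immunoprecipitated library against the input, so no value has a replicate and no test between groups was possible.

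The peak table gives positions only. It holds no read count, height, enrichment or p-value, so the depth behind a peak is unknown and no occupancy level can be compared between genes. Peaks are called promoter peaks here where their centre is at most 1 kb from the start of the transcript on the same row. A table position is the row number, counted from 1 to 16697. The rows are not sorted by coordinate, what orders them is not stated, and peaks in earlier rows tended to be wider. Of 10 cardiac marker genes 7 had a promoter peak named, and 0 of 10 hepatocyte, erythroid, lung and neuronal markers did, against 50.6% of all protein-coding genes. Of the other cardiac markers, Tbx5 and Tbx20 had 5 and 6 named peaks, all outside the promoter, and Nppa had none. The non-cardiac markers had no named peak of any kind, against 52.6% of all protein-coding genes with one.

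Insulin and insulin-like growth factors bind receptor tyrosine kinases, which phosphorylate IRS adaptor proteins that recruit PI3-kinase. The lipid made by PI3-kinase brings AKT to the membrane, where PDPK1 and the mTOR complex mTORC2 activate it, and AKT relieves the TSC complex's brake on the GTPase RHEB and so on mTORC1. Amino acids act on mTORC1 through Rag GTPases held on the lysosome by Ragulator and opposed by GATOR1, and low energy acts through LKB1 and AMPK. In the heart this network sets cell growth, glucose uptake and protein synthesis.

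The 8 promoters below show sequence at the start sites that the results turn on, and some of the windows reach beyond the peak. They are RefSeq windows of 300 bases on GRCm38.p6, from 250 bases upstream of the start site to 50 downstream, written 5′ to 3′ on the strand of the gene. They were chosen for the widest promoter peak (Igf1r), the earliest row (Pdpk1), the latest first row of any member (Rragb), and members with several peaks (Irs1, Pik3r1, Mtor, Rheb and Rragd). The windows are chr7:67952007-67952306 (Igf1r, plus strand), chr1:82291390-82291689 (Irs1, minus strand), chr13:101768168-101768467 (Pik3r1, minus strand) and chr17:24141545-24141844 (Pdpk1, minus strand). The others are chr4:148448332-148448631 (Mtor, plus strand), chr5:24842312-24842611 (Rheb, minus strand), chrX:153139708-153140007 (Rragb, plus strand) and chr4:32982748-32983047 (Rragd, plus strand). Capitals mark matches, on either strand, to the GC box GGGCGG, the CCAAT box, the E-box CACGTG or the ETS motif CCGGAAG, and the Rragd window has none.
Igf1r: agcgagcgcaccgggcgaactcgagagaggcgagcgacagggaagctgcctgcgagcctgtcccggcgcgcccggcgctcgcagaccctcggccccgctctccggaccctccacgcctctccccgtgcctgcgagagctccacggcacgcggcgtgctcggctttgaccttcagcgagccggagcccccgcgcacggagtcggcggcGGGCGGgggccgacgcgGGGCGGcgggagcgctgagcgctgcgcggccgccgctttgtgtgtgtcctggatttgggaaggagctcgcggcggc
Irs1: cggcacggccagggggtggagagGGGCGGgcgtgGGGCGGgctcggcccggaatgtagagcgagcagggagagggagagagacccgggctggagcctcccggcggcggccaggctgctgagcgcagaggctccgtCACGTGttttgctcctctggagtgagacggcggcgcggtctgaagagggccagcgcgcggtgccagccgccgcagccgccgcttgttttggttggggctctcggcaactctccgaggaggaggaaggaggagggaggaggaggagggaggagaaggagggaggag
Pik3r1: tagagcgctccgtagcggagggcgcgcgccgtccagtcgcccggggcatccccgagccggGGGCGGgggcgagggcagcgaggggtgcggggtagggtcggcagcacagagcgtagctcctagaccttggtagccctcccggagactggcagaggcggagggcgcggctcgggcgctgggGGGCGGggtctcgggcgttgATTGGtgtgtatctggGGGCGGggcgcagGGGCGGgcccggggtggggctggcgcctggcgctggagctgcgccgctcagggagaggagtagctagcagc
Pdpk1: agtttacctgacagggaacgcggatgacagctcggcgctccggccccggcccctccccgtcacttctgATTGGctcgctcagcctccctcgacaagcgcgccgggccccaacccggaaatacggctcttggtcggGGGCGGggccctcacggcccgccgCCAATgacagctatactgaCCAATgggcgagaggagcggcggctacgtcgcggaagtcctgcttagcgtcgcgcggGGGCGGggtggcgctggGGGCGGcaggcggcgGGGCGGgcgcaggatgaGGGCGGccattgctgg
Mtor: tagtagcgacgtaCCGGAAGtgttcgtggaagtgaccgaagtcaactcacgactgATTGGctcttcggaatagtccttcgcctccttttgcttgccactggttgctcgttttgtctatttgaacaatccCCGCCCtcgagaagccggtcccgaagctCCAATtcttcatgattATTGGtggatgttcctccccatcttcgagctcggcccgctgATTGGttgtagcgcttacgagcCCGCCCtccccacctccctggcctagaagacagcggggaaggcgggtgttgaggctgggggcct
Rheb: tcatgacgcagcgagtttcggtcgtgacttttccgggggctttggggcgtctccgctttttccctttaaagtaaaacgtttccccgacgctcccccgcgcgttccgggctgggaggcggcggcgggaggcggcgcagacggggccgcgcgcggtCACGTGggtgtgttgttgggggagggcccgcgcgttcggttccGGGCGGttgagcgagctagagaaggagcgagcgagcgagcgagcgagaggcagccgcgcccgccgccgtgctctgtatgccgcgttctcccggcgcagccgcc
Rragb: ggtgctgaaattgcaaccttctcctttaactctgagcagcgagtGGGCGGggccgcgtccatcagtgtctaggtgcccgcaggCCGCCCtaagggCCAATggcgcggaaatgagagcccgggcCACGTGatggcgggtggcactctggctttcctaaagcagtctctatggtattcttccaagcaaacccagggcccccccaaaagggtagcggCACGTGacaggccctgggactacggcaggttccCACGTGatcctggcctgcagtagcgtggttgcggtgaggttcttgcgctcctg
Rragd: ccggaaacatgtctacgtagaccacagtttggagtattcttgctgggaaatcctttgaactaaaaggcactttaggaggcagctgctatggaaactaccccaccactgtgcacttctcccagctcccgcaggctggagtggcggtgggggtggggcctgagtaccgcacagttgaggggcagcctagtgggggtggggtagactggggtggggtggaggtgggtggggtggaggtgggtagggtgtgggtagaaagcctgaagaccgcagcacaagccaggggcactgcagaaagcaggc

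Sap130 peaks were named for 44 of the 48 genes, 91.7%, against 52.6% of all protein-coding genes. All 44 had a promoter peak, 91.7% against 50.6%. At least 1 named start site lay inside a peak for 40 members, 83.3% against 43% of all genes. By peaks named for them, Pik3r1 and Prkag2 were counted through 1 of their 2 named start sites. Named peaks numbered 2 or more for 16 members, 33.3% against 12.2%. Only genes with a named peak can enter either of these shares. These shares describe the list and carry no test, since the members were put forward with results of these data known. Of the 69 peaks, 57 were promoter peaks and 12 were centred farther away, so promoter peaks made up 82.6% of member peaks against 84.1% of all 15171 named peaks. Single peaks were named for 28 members, 2 peaks for 13, and 3 or more for Irs1, Pik3r1 and Trib1.

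**Figure D1:**
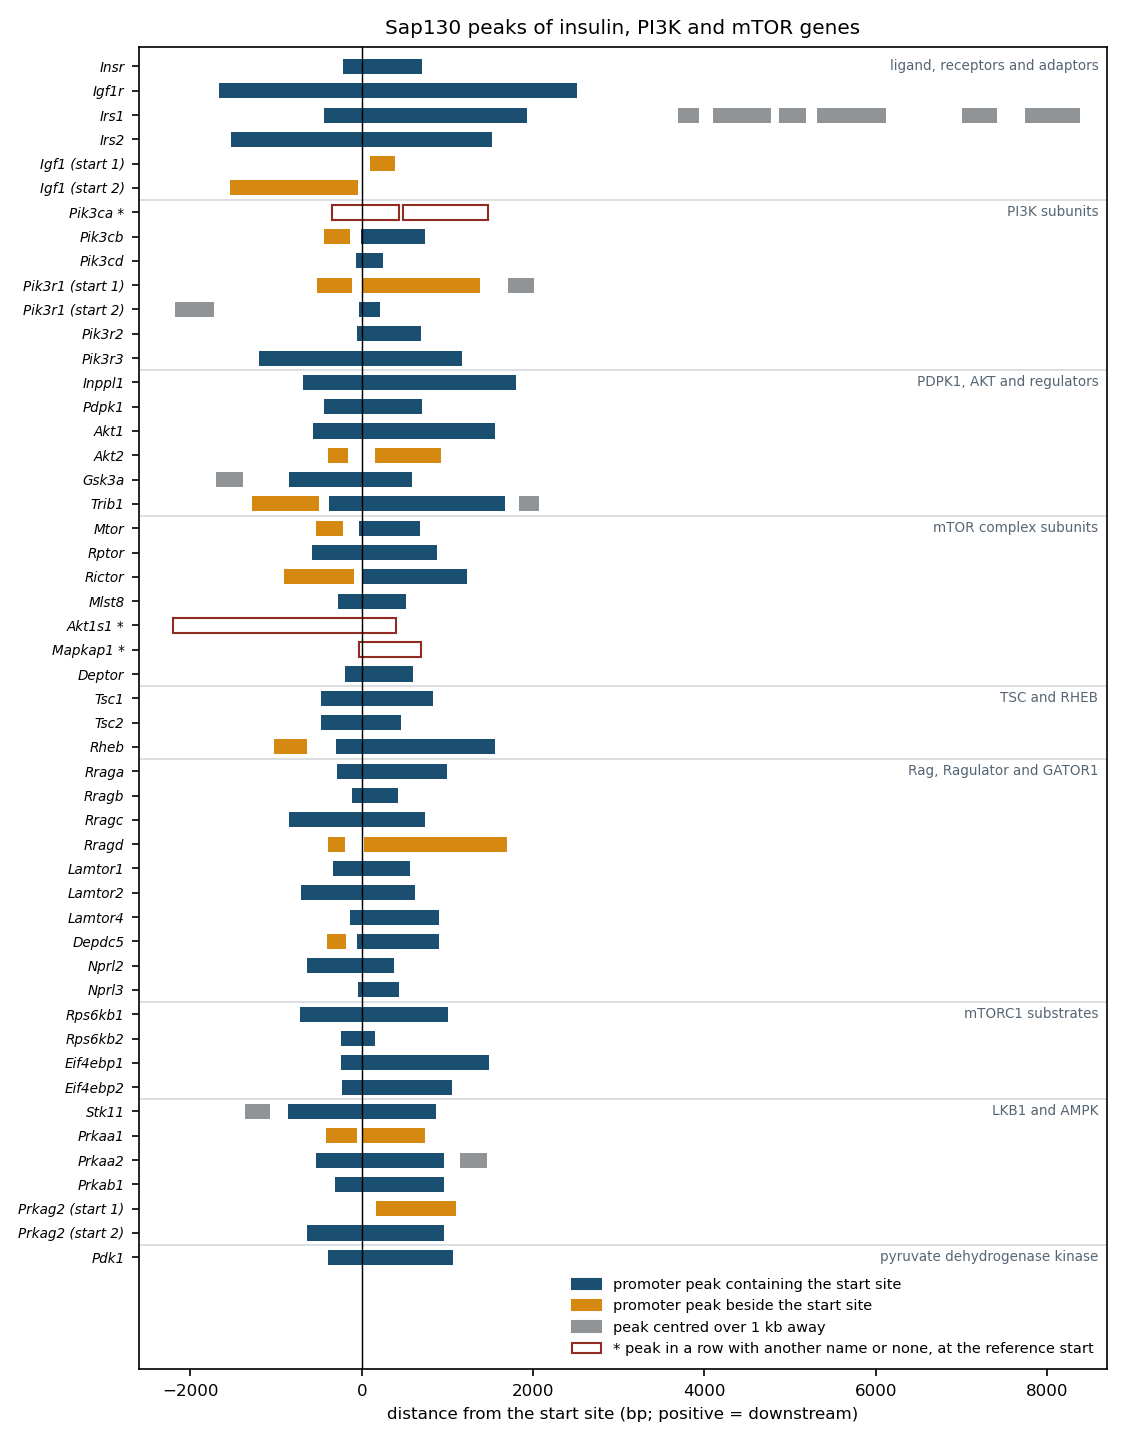
Horizontal bars span each peak in bp from the start site of the transcript in its row (x axis, positive downstream), with a row for each gene and start site, grouped by role. Blue bars contain the start site, orange bars are the other promoter peaks, and grey bars are centred over 1 kb away. Outlined bars are peaks of Pik3ca, Akt1s1 and Mapkap1 whose rows carry another name or none. They are placed by the reference start, and the second Pik3ca bar begins 484 bp downstream of it. Of the 69 named peaks 40 contain the start site and 12 are centred over 1 kb away, and the row of 6 grey bars up to 8389 bp downstream belongs to Irs1.

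The median width was 1015 bp for member promoter peaks, with quartiles of 703 and 1501 bp, against 785 bp (474 and 1173) for all 12760 promoter peaks. Their midpoints had a median of 163 bp downstream of the start site, against 187 bp. The start site lay inside 70.2% of member promoter peaks (40 of 57, exact 95% interval 56.6 to 81.6), against 73.7% of all promoter peaks. Midpoints lay downstream in 66.7% of member promoter peaks (38 of 57, exact 95% interval 52.9 to 78.6), against 78.3% of all promoter peaks. The 10 members with promoter peaks on both sides, described below, each add an upstream midpoint to this count. The share with 1 peak per gene was not computed. These intervals cover counting error only. By the exons of the named transcript, 21 midpoints lay in intron 1, 16 in exon 1, 19 upstream of the start site and 1, at Rictor, in intron 2. The midpoint nearest inside the 1 kb limit was 892.5 bp upstream of Trib1, and the nearest outside it was 1223 bp upstream of Stk11.

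The 2 widest promoter peaks of the set were those of the receptor gene Igf1r and the adaptor gene Irs2. Igf1r, the receptor of insulin-like growth factors, had 1 peak of 4189 bp (chr7:67950585-67954774, table position 4369), the rank 4 in width among the 12760 promoter peaks. It reached 1672 bp upstream and 2517 bp downstream of the start site at 67952257. Insr, the insulin receptor, had a peak of 927 bp (chr8:3278909-3279836, position 6792) centred 244.5 bp downstream, in the non-coding part of exon 1. Width is no measure of occupancy, so the difference between the receptor genes is one of extent only.

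The adaptor genes Irs1 and Irs2 had promoter peaks of 2365 bp (chr1:82289514-82291879, position 7652) and 3044 bp (chr8:11006911-11009955, position 5733). For Irs2 the start of the named transcript, at 11008430, and the reference start, at 11008929, both lay inside the peak. Another peak inside Irs2, of 297 bp, was named for 9530052E02Rik (chr8:11003560-11003857, position 15590). No peak was found at Irs4, an adaptor gene on the X chromosome, where the nearest peak was centred 248957.5 bp from the reference start site. Igf1, the ligand, had 2 start sites about which peaks lay without containing either. A peak of 297 bp (chr10:87859152-87859449, position 12055) began 96 bp downstream of the start site at 87859056. A second peak of 1494 bp (chr10:87859576-87861070, position 11198) ended 41 bp upstream of the start site at 87861111.

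Irs1 was the member with the most peaks, 7 in all, and the 6 beyond its promoter followed the gene downstream. Its named transcript has 2 exons, and the whole coding sequence lies in exon 1, between 946 and 4641 bp from the start site. The promoter peak ran 1925 bp into exon 1. After an interval of 1763 bp without a peak came 2 peaks centred in the coding part, of 251 bp (chr1:82287500-82287751, position 14355) and 672 bp (chr1:82286661-82287333, position 11138). Another 4 were centred in intron 1, of 321 bp (position 14642), 806 bp (12676), 406 bp (14354) and 649 bp (10933), the last spanning chr1:82283050-82283699 and ending 8389 bp from the start site. All 6 stood later in the table than the promoter peak. Gaps between neighbouring peaks after the first interval were between 91 and 892 bp. Of the 12 member peaks centred beyond 1 kb, 6 belonged to this gene.

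**Figure D2:**
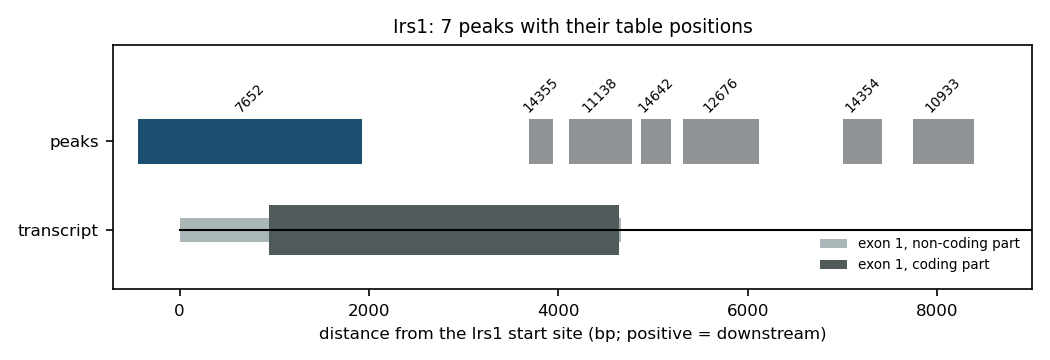
The 7 Irs1 peaks (upper bars, labelled with their table positions) are drawn in bp from the start site (x axis, positive downstream) above exon 1 of the named transcript, with the coding part as the taller dark bar. The blue promoter peak covers the start site, and the 6 grey peaks lie between 3688 and 8389 bp, over the end of the coding part and the start of intron 1.

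PI3-kinase consists of a catalytic and a regulatory subunit. The catalytic subunit gene Pik3cb had a peak of 750 bp over its start site (chr9:99139472-99140222, position 4043) and a second of 303 bp upstream (chr9:99140348-99140651, position 10584). Pik3cd, whose product acts mainly in leukocytes, had a single short peak of 324 bp (chr4:149675836-149676160, position 13012). It lay at 1 of 3 reference start sites, and the nearest peak to the other 2 was 12520 and 22548 bp away. No row was named for Pik3ca, the alpha catalytic subunit, but its reference start site at 32397065 lay inside a peak of 784 bp (chr3:32396715-32397499, position 3034) whose row names no gene. A second unnamed peak of 995 bp followed directly downstream (chr3:32397549-32398544, position 6687).

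Among the regulatory subunit genes Pik3r1 had 5 peaks at 2 start sites. At the upstream start site, 101768217, a peak of 1365 bp began 17 bp downstream (chr13:101766835-101768200, position 3930) and a peak of 412 bp ended 109 bp upstream (chr13:101768326-101768738, position 8539). One more, of 307 bp, lay farther into intron 1 (position 16533). At the internal start site, 101692647, from which shorter products are made, a peak of only 236 bp contained the start (chr13:101692439-101692675, position 15109). Another of 452 bp was centred 1957 bp upstream of it (position 11633). Pik3r2 had 1 peak of 752 bp (chr8:70776020-70776772, position 4015). Pik3r3 had 1 of 2373 bp (chr4:116220714-116223087, position 3009), which contained 3 reference start sites as well as that of the named transcript.

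Pdpk1, the kinase that phosphorylates the activation loop of AKT, had the earliest row of the set, position 527, a peak of 1146 bp centred 129 bp downstream of its start site (chr17:24140887-24142033). A second reference start site of Pdpk1, at 24150922, lay outside any peak, with an unnamed peak of 359 bp 1012 bp away. Akt1 had a peak of 2118 bp (chr12:112672722-112674840, position 1125), reaching 1554 bp downstream. Akt2, the isoform of insulin-responsive glucose uptake, had no peak over its start site, but 1 on each side, of 228 bp (position 11815) and 771 bp (chr7:27591712-27592483, position 5332). The 3 reference start sites of Akt2 farther downstream lay 4347, 13314 and 14853 bp from the nearest peak.

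Regulators around AKT also had peaks at their start sites. Inppl1 encodes a phosphatase that removes the PI3-kinase product, and had a peak of 2489 bp (chr7:101836024-101838513, position 6553). Gsk3a, a kinase that AKT inhibits, had a peak of 1434 bp (chr7:25237270-25238704, position 1666) and another of 312 bp centred 1541 bp upstream (position 14552). Trib1, a pseudokinase that directs proteins to degradation, had 3 peaks of 781, 2054 and 235 bp, centred 892.5 bp upstream, 641 bp downstream and 1956.5 bp downstream. The widest of them spanned chr15:59648268-59650322 at position 4474. The symbol Pdk1 in the set denotes, in mouse nomenclature, pyruvate dehydrogenase kinase 1 and not PDPK1. It had a peak of 1469 bp (chr2:71872873-71874342, position 4607).

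Of the 7 subunit genes of the mTOR complexes in the set, 5 had a promoter peak named for them, against 50.6% of all protein-coding genes. The other 2 had a peak at the reference start only in rows under another name or none. That is a looser rule, whose share over all genes is given below. Mtor, the kinase, had a peak of 703 bp over its start site (chr4:148448554-148449257, position 1813) and a peak of 312 bp upstream (chr4:148448051-148448363, position 10270). Rptor, the defining subunit of mTORC1, had a peak of 1453 bp (chr11:119602418-119603871, position 4994). Rictor, that of mTORC2, had peaks of 820 bp (chr15:6707474-6708294, position 5356) and 1235 bp (chr15:6708380-6709615, position 6755) on either side of an 86 bp gap. The second contained the start site by 1 bp, within the uncertainty of the peak coordinates. Mlst8, shared by both complexes, stood early at position 987 with 793 bp (chr17:24478563-24479356). Deptor, an inhibitor of mTOR, also had 793 bp (chr15:55112284-55113077, position 4442). A peak of 234 bp named for Gm9920 followed inside Deptor (chr15:55113127-55113361, position 16220).

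Mapkap1 encodes the mTORC2 subunit SIN1, and both of its reference start sites lay inside an unnamed peak of 722 bp (chr2:34406741-34407463, position 3072). Akt1s1 encodes the mTORC1 inhibitor PRAS40. Its reference start at 44850372 lay inside a peak of 2595 bp (chr7:44848171-44850766, position 256) named for the microRNA gene Mir707. Counting any peak whose midpoint lay within 1 kb of a reference start site, whatever its name, 42 of the 43 members with such a site had a peak, 97.7% against 55.9% of 16782 protein-coding genes. Irs4 was the member without. This count was added after the data were seen. Across the table, 193 of the 1526 rows with no gene named, 12.6%, lay within 1 kb of a reference start site of a protein-coding gene.

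The TSC complex is the GTPase-activating complex that switches RHEB off. Tsc1 had a peak of 1316 bp (chr2:28640764-28642080, position 5528) and Tsc2 1 of 934 bp (chr17:24632172-24633106, position 1790). Rheb had a peak of 1862 bp over its start site (chr5:24840801-24842663, position 1295) and a second of 384 bp centred 831 bp upstream (position 11185).

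All 10 genes of the amino acid branch had a promoter peak named for them, against 50.6% of all protein-coding genes. Their rows spread from near the top of the table to near its end. Of the Rag GTPase genes, Rragc stood at position 560 with 1579 bp (chr4:123916588-123918167) and Rraga at 3574 with 1288 bp (chr4:86575379-86576667). Rragd had a peak of 1665 bp that began 26 bp downstream of its start site (chr4:32983024-32984689, position 5375), and a peak of 207 bp upstream (position 15666). Rragb, on the X chromosome, had 540 bp at position 16245 (chrX:153139838-153140378). RAGA or RAGB pairs with RAGC or RAGD in each dimer. Rraga and Rragb stood far apart in the table, the order of which is not explained.

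The Ragulator genes Lamtor1 (895 bp, position 4887), Lamtor2 (1336 bp, position 7413) and Lamtor4 (1040 bp, position 8121) had 1 peak each, over the start site. They anchor the Rag GTPases to the lysosome. GATOR1, which switches RAGA and RAGB off, is made of the products of Depdc5, Nprl2 and Nprl3. Nprl2 stood early, at position 1020 with 1015 bp (chr9:107541571-107542586), and Nprl3 at 4935 with 470 bp (chr11:32267185-32267655). Depdc5 had peaks of 959 bp (chr5:32863664-32864623, position 6841) and 222 bp (position 12556) on the 2 sides of a gap that ended 57 bp before its start site.

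Genes of mTORC1 substrates had 1 peak each. The S6 kinase genes differed in width, with 1732 bp at Rps6kb1 (chr11:86543797-86545529, position 5315) and 399 bp at Rps6kb2 (chr19:4163090-4163489, position 5884). The genes of the translation repressors 4E-BP had 1719 bp at Eif4ebp1 (chr8:27260090-27261809, position 5568) and 1280 bp at Eif4ebp2 (chr10:61451617-61452897, position 4851). All 4 stood between positions 4851 and 5884, a stretch that also held other members, among them Rptor (4994), Tsc1 (5528) and Irs2 (5733).

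LKB1 and AMPK genes form the energy-sensing arm. Stk11, which encodes LKB1, was at position 562 with 1724 bp (chr10:80115675-80117399) and had a second peak of 292 bp centred 1223 bp upstream of the named start site. The wide peak contained both that start site, at 80116536, and the reference start at 80115795. The reference start lies 741 bp upstream of the named one and so nearer to the second peak. That second peak was classed by the named start only. Of the catalytic subunit genes, Prkaa1 had 729 bp downstream (chr15:5143875-5144604, position 2509) and 366 bp upstream (position 7152) of a start site that neither contained. Prkaa2, the isoform prominent in muscle, had 1501 bp over the start site (chr4:105108935-105110436, position 8095) and 309 bp downstream (position 16688). Prkab1 had 1274 bp (chr5:116023470-116024744, position 4560).

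Prkag2 encodes the AMPK gamma subunit that is mutated in an inherited human cardiomyopathy. It had peaks at each of its 3 reference start sites. The most downstream start site, 24908509, lay in a peak of 1600 bp (chr5:24907546-24909146, position 4744). The middle start site, 24995753, lay in a peak of 214 bp in a row without a gene name (chr5:24995696-24995910, position 15500). The most upstream, 25100642, lay in a peak of 808 bp named for the non-coding gene 2900005J15Rik (position 8919), and a peak of 930 bp named for Prkag2 began 167 bp downstream of it (chr5:25099545-25100475, position 11366).

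A pair of promoter peaks with a gap between them was found at 10 members, 20.8% of the set against 4.91% of all protein-coding genes. Only genes with a promoter peak can have such a pair, and 91.7% of members against 50.6% of all genes had one. The contrast in pairs therefore partly restates that share. They were Prkaa1, Rictor, Trib1, Pik3cb, Pik3r1, Depdc5, Mtor, Rragd, Akt2 and Rheb. The gaps measured between 65 bp at Prkaa1 and 337 bp at Rheb, with a median of 127 bp. In 4 genes, Prkaa1, Pik3r1 (upstream start site), Rragd and Akt2, the start site lay in the gap. In the other 6 the gap lay upstream and the start site in the downstream peak, which contained it by only 1 bp at Rictor, 11 bp at Pik3cb and 28 bp at Mtor. The downstream peak was the wider of the pair in all 10 genes, and it stood earlier in the table in 9, the exception being Rictor. These features were not counted over the 1029 protein-coding genes with such pairs, so they are not shown to be particular to the members. Without read coverage it was not tested whether signal falls within these gaps or the caller split a single enriched region.

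**Figure D3:**
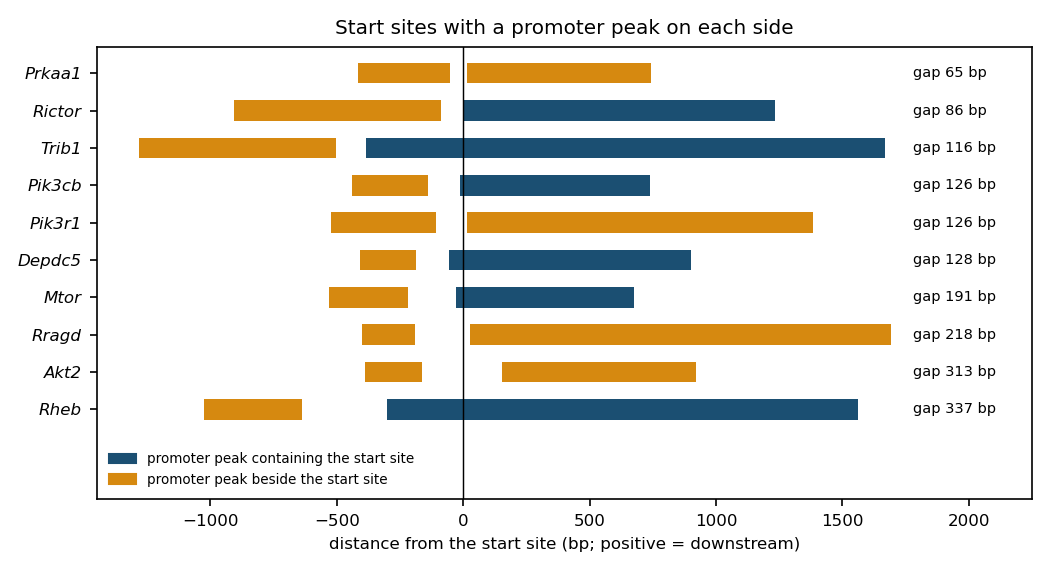
For the 10 members with promoter peaks on both sides, bars span the peaks in bp from the start site (x axis, positive downstream), in order of the gap between them, which is printed at the right. Blue bars contain the start site and orange bars do not. The gap lies at or just upstream of the start site, except at Trib1 and Rheb, where it ends 386 and 302 bp upstream.

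The first promoter peaks of the members stood mostly in the upper rows of the table. The first promoter peak of the 44 genes had a median position of 4798, with quartiles of 2884 and 5771, against 5884 (2844 and 9413) for the 10598 protein-coding genes with a promoter peak. Up to row 4174 stood 16 members, 36.4% against 36.2%. Another 25, 56.8% against 31.8%, stood between rows 4175 and 8348. Igf1 was the only member between rows 8349 and 12522, 2.27% against 21.9%, and Pik3cd and Rragb stood later still, 4.55% against 10%. Across the 57 promoter peaks width and position were inversely related (Spearman rho -0.47), as they were across all promoter peaks (-0.70). Peaks are not independent replicates, and several share a promoter. Peaks wider than 2 kb made up 12.3% of member promoter peaks (7 of 57), against 4.08% of all promoter peaks (520 of 12760). The 7 were those of Igf1r, Irs2, Inppl1, Pik3r3, Irs1, Akt1 and Trib1.

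**Figure D4:**
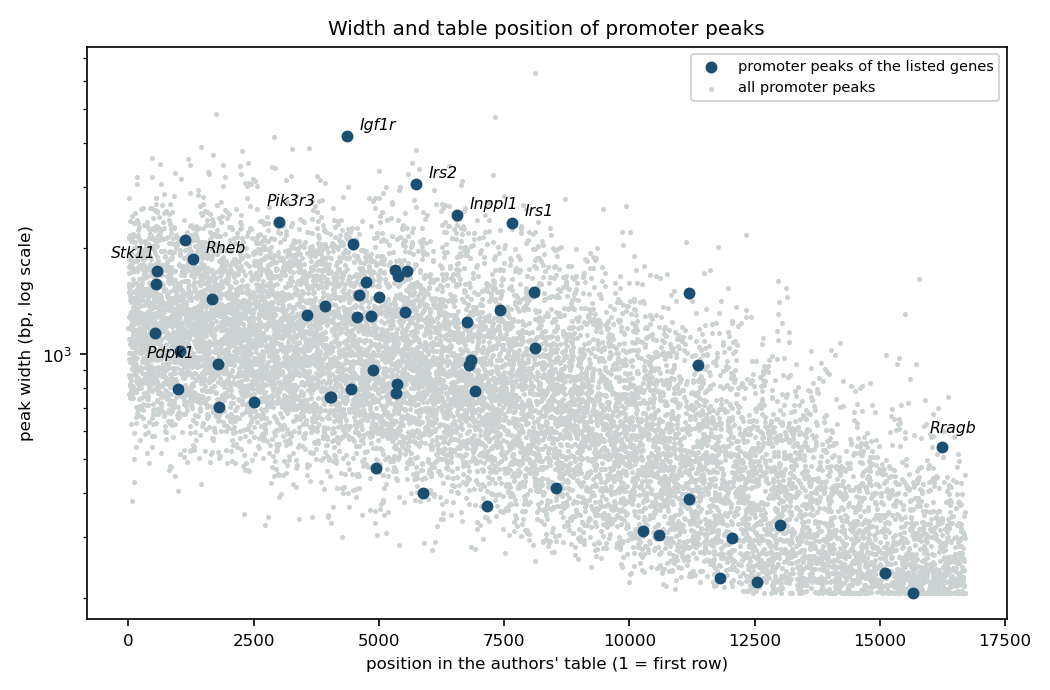
Peak width in bp (y axis, log scale) is plotted against the row number in the authors' table (x axis) for the 57 promoter peaks of the set (blue) and all 12760 promoter peaks (grey). The Igf1r peak of 4189 bp stands above all other peaks of the set, and Rragb, at position 16245, is the latest of the blue points.

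Several members share their start region with a gene on the opposite strand, and each row names a single gene. The start sites of Tsc2 and the DNA repair gene Nthl1 lay 53 bp apart, those of Rps6kb1 and Tubd1 184 bp apart, and those of Nprl2 and Cyb561d2 344 bp apart. In each of these pairs the peak named for the member contained the neighbour's start site as well, and no peak was named for the neighbour. Lamtor2 and Ubqln4, 789 bp apart, had separate rows, Ubqln4 at position 4051. Non-coding genes of the opposite strand began inside the peaks of Akt1, Inppl1, Pdpk1 and Prkaa2. To which gene of such a pair a peak belongs cannot be told apart from position alone.

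Promoter windows were found in the RefSeq table for 43 members, and 28 of them had exactly the start site of the named transcript. They held a median of 25 CpG dinucleotides in 300 bases, with quartiles of 19 and 34.5, against 15 (4 and 25) for 16782 protein-coding genes. Genes with a peak within 1 kb of the window's start site had a median of 23 and genes without had 3. Prkaa1 had the most, 52, followed by Igf1r with 48, while Igf1, Rragd and Lamtor4 had 6 each. Irs4, the member without any peak nearby, had 19. CpG count and the width of the gene's widest peak were weakly related over 39 members (Spearman rho 0.14), which is given as a description.

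**Figure D5:**
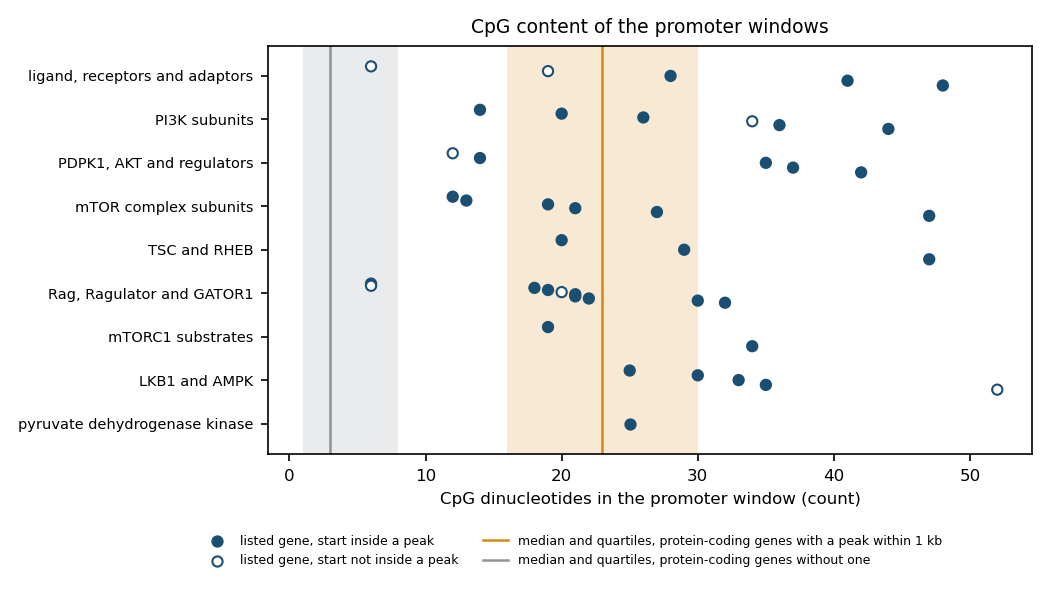
Each point is the number of CpG dinucleotides in the 300-base promoter window (x axis) of 1 of 43 members, by role (y axis), filled where a peak contains the window's start site and open where none does. Lines and shaded bands are the median and quartiles of protein-coding genes with a peak within 1 kb (orange, median 23) and without (grey, median 3). Most members lie in or above the orange band, and the Igf1, Rragd and Lamtor4 windows, with 6 each, lie in the grey band.

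Motifs were searched as exact strings on both strands of the same windows, and no motif searched contains another. GC boxes (GGGCGG) occurred in 31 of 43 member windows, 72.1%, against 48.7% of all protein-coding windows and 71.7% of those with a peak within 1 kb. E-boxes (CACGTG) occurred in 8, 18.6% against 8.09% and 10.7%. These were Irs1, Irs2, Irs4, Rheb, Lamtor1, Lamtor4, Rragb and Rragc. They comprise 3 adaptor genes, Rheb and 4 genes of the Rag and Ragulator group, and the printed Rragb window has 3 copies. The ETS motif (CCGGAAG) occurred in 11 windows, 25.6% against 12.6% and 20.1%, among them those of Mtor, Tsc2, Pik3ca, Lamtor1, Lamtor2 and Rraga. The Tsc2 window held it at 2 places.

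The CCAAT box occurred in 16 member windows, 37.2% against 39.1% of all and 38.3% of peak-bearing windows. Mtor had 4 copies and Pdpk1 and Stk11 3 each. TATAAA occurred once, at Nprl3, 2.33% against 13.1% and 5.84%. The forkhead motif GTAAACA occurred at Mapkap1 and Stk11, 4.65% against 2.88% and 2.07%, and the E2F string TTTCCCGC at Depdc5 and Irs2, 4.65% against 1.52% and 2.35%. The NRF1 motif, GCGC and TGCGC with any base between them, occurred at Nprl2 and Pik3cb, 4.65% against 6.98% and 11.9%. The second E2F string TTTGGCGC and the CRE TGACGTCA were in no member window, against 0.691% and 2.42% of all windows. A match shows the letters only and not a bound factor.

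Other genes of the pathway were taken from a separate list of 80, of which 79 were found in the gene table. Promoter peaks were named for 68 of the 79, 86.1% against the 50.6% of all protein-coding genes. The earliest were Ulk1 (272), an autophagy kinase that mTORC1 inhibits, Prkab2 (459), an AMPK subunit, Eif4g1 (461), a translation initiation scaffold, Fnip1 (953), a folliculin partner, and Camkk2 (1419), a kinase of AMPK. Among those without a named promoter peak were Pik3cg, Pik3r5, Pik3r6, Inpp4b, Inpp5d, Tti1, Eif4e, Eif4ebp3 and Stradb. Pik3cg, Pik3r5 and Pik3r6 encode the catalytic subunit and both adaptors of PI3-kinase gamma, and Inpp5d a phosphatase of blood cells. The peaks nearest to Pik3r5 and Inpp5d were centred at -45991.5 and -109980.0 bp from the reference start site, and the nearest to Pik3cg at 147368.0 bp. Tti1 and Stradb had a peak over the reference start site that was named for a neighbour, Rprd1b and Trak2, and at Inpp4b such a peak had no gene named. At Eif4e a peak named for Mir1956 was centred 605.5 bp downstream of a reference start site.

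Away from start sites, peaks without a gene name lay inside Igf1r, Insr and Akt1. Igf1r had 2 in its gene body, of 785 bp (chr7:68128874-68129659, position 9339) and 410 bp (chr7:68129816-68130226, position 13456). Insr had 1 of 501 bp (chr8:3221209-3221710, position 13233) and Akt1 1 of 279 bp (chr12:112660803-112661082, position 15232).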

How the data were processed

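Sap130 ChIP-seq was made from 1 immunoprecipitated and 1 input library of embryonic mouse heart. The submitters' processing notes name Bowtie 1.1.2, MACS2 2.1.0.20140616, and the builds GRCm38 and mm10, which share chromosome sequences. Parameters, thresholds, duplicate handling and the source of the gene annotation are not stated there. They set the number and width of peaks.

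The authors deposited 1 table of peak positions in bp, with transcripts annotated per row and no score, p-value or count. Start sites are the deposited transcript start (plus strand) or end (minus strand) with 1 added, which matches the reference table. Peak positions are as deposited and uncertain by 1 bp. Width is end minus start. Peaks were matched to genes by accession, then symbol, then synonym, in a RefSeq table of GRCm38.p6 (15141 of 15171 named rows). The background is protein-coding genes with a curated transcript. All named peaks lay within 10 kb of their start site. The computation of midpoint distances and start-site containment was run on simulated peaks placed from the same start sites. That checks the arithmetic only, and not the start sites or the peak coordinates. No group test was possible.

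Members and lists were chosen with earlier results of these data known. All members are named, and some genes of the other pathway list are not reported here. Printed promoters follow the widest, earliest and latest promoter peak and the members with most peaks in their role group. Trib1 has no window, Mtor and Rragd were taken from ties, and the tied substrate and AMPK groups are not shown. Alternatives varied the window, peak set, start site and gene match. Python 3.11.15, NumPy 2.4.6, pandas 2.3.3, SciPy 1.17.1 and matplotlib 3.10.9 were used.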

Additional observations from a re-analysis of the deposited data

How the results depend on the processing

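The number of members with a promoter peak, 44, was between 39 and 44 under all 11 alternatives. It was 39 with a 500 bp window (81.2% against 45.5% of all protein-coding genes), 41 among the first 8348 rows (85.4% against 34.4%), and 40 with peaks of 682 bp, the median of the table, or more (83.3% against 33.6%). It was 43 without Pdk1, whose own peak drops out with it. With reference start sites and any name it was 42, but of the 43 members with such a site. The 3 kb window and the count of any base within 1 kb could not lower it. Most of the 39 alternatives over all results reuse the same peaks, and the limits are wide, so they are a weak check. Of them, 38 stayed within 1.5 times a count or within the 95% interval of a value. The exception was the share of promoter peaks that contain the start site, 70.2% against 73.7% of all promoter peaks, which was 86.4% over the earliest peak of each member, an alternative added after the data were seen that drops the second peak of a pair. With the earliest peak of each gene the share over all genes was 82.8%. No paired analysis was possible because there is 1 library of each kind. Peak height, depth and the spread between hearts are unknown, so a missing peak cannot be told apart from one below the authors' threshold.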
